A study of Mus musculus with 6 samples.

Results

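A set of 9 genes of the monocyte stage was followed in macrophages sorted from injured mouse sciatic nerve. They were 5 genes of the Ly6 family (Ly6c2, Ly6c1, Ly6i, Ly6e and Ly6a) and 4 other genes abundant in blood monocytes (Plac8, Hp, Napsa and Lyz2). They were chosen by gene symbol, and all 9 were found among the 24822 symbols of the deposited tables. The mice were C57BL/6 animals that carried both reporters, Macblue and 1 Cx3cr1egfp allele, and all had undergone the procedure abbreviated CCI in the labels 14 days earlier. All cells came from the injured side and were gated as CD64+, CD11b+, SiglecF- and Ly6G-. Resident macrophages were taken as the EGFP+ cells and recently recruited macrophages as the ECFP+ cells, with 3 libraries per group, each from about 400 cells of 3 pooled mice. The labels give no age or sex, and no uninjured nerve is among the 6 libraries. As background, the Macblue transgene drives ECFP from a modified Csf1r promoter that is active in monocytes and silent in most tissue macrophages, and an EGFP knock-in at Cx3cr1 removes 1 copy of that receptor in every animal here.

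Classical monocytes leave the bone marrow with high surface Ly6C, enter injured tissue through the chemokine receptor Ccr2, and turn down much of this programme as they become macrophages. The Ly6 proteins are small, mostly GPI-anchored surface proteins encoded in a cluster of related genes. Several of them are induced by interferons. Because the samples are bulk RNA, fewer cells that carry a transcript and less of it per cell cannot be told apart.

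The 5 Ly6 genes lie together on chromosome 15 in the mm10 build (GENCODE M21 annotation). Ly6e is at chr15:74955051-74959905 on the plus strand. On the minus strand follow Ly6i at chr15:74979534-74983430, Ly6a at chr15:74994877-74998031, Ly6c1 at chr15:75044018-75048830 and Ly6c2 at chr15:75108158-75111970. Plac8 lies at chr5:100553725-100572245, Hp at chr8:109575128-109579172 and Lyz2 at chr10:117277331-117282321, all on the minus strand. Napsa lies at chr7:44572380-44586862 on the plus strand, where Gm15396 overlaps it on the opposite strand, and the sources used here do not say whether reads were counted by strand.

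Ly6c2 and Ly6c1 are near copies, which bears on how reads of 75 bases can be assigned to them. Their coding sequences are identical at 384 of 393 bases, or 97.7%. The first 75 coding bases hold 6 of the differences, marked by capitals, and are shown because a read from here can tell the genes apart.
Ly6c2: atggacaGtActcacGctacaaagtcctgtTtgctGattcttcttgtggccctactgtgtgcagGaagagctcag
Ly6c1: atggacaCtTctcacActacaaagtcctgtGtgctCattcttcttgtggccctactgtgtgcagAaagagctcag
Coding bases 66 to 140 hold no difference and are shown as the opposite case, where a single read fits both genes.
Ly6c2 and Ly6c1: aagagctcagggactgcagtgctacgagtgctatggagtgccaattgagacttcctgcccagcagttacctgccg
Of the 748 windows of 75 bases in the Ly6c2 transcript, 21.9% also occur in Ly6c1, and of the 770 windows in the Ly6c1 transcript 23.2% also occur in Ly6c2 or Ly6a. These shares are for single reads. The reads were paired, and a mate can fall where the genes differ. The other family members are less alike. Ly6i and Ly6a are 86.3% identical in coding sequence, both are 81.3 to 81.8% identical to the Ly6c genes, and Ly6e is 49.7 to 52.3% identical to the other 4. Ly6i and Ly6a share 0.555% and 0.805% of their windows with each other, and Ly6e, Plac8, Hp and Napsa share none with any gene. Lyz2 shares 5.96% of its windows with its neighbour Lyz1, whose coding sequence is identical at 422 of 444 bases.

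The libraries held 16668691 to 27510959 counts, so that 3 counts correspond to 0.105 to 0.179 CPM (counts scaled to library size, with TMM factors). Resident replicates 2 and 3 stood apart: the correlation of their log2 CPM with any other library was at most 0.871 and 0.880, while each other library reached at least 0.932 with another. The biological coefficient of variation was 0.613 among resident and 0.287 among recruited libraries. The 2 most abundant of 7 macrophage genes were Cd68, at 1974 to 2138 CPM in resident and 2407 to 2622 CPM in recruited libraries, and Csf1r. The latter, the receptor of the main macrophage growth factor, was at 998 to 1483 and 1180 to 1603 CPM. Mertk and Cx3cr1, named after their values were seen, were lower. Mertk was at 36.9 to 86.1 and 61.4 to 90.1 CPM, and Cx3cr1 at 33.5 to 91.8 and 9.48 to 58.3 CPM. Ly6g, which the gate was set against, had no count in any library.

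No gene of the set passed the test between the groups. Of 8 genes with enough counts to be tested, 0 passed edgeR's quasi-likelihood test in either direction at an adjusted p under 0.05. Over all 11354 tested genes, 0.0617% were called higher in recruited and 0.255% higher in resident macrophages. At an unadjusted p under 0.05 there were 2 of the 8, Ly6e and Hp, against 16.8% of all tested genes. DESeq2 also called 0 of the 8, against 6.17% of the genes it tested, and limma on FPKM called 0. The log2 differences, here always recruited minus resident, were positive for 4 and negative for 4, with a median of 0.00 beside 0.01 over all tested genes. Hp was the 1 gene with all recruited libraries above all resident ones, a pattern that 12.2% of all tested genes had, and Ly6e was the 1 gene with the reverse, which 12.6% had.

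**Figure D1:**
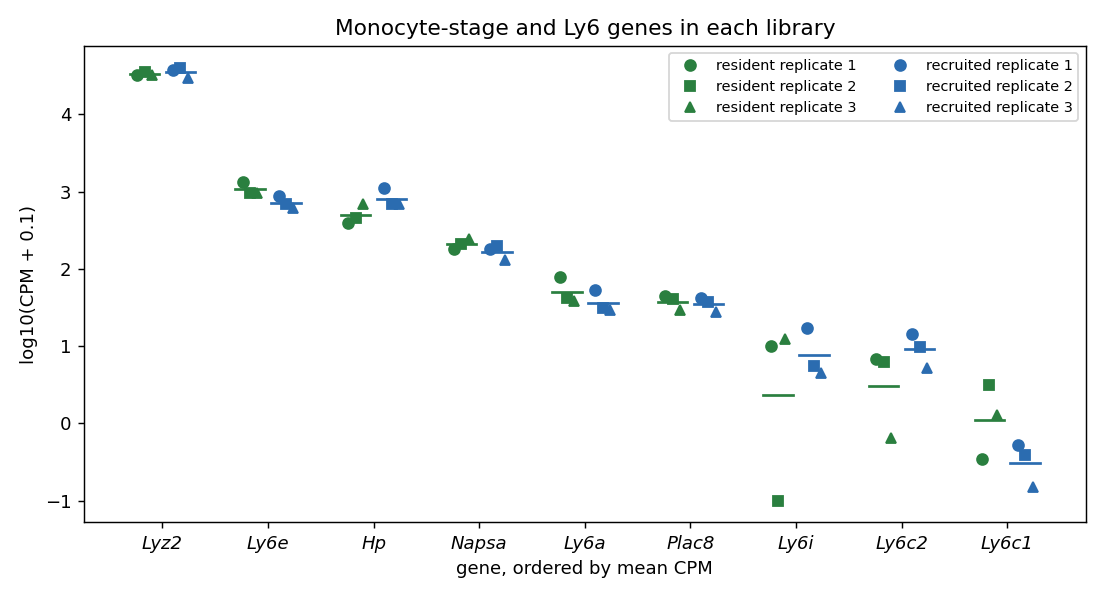
CPM of the 9 genes in each of the 6 libraries, as log10(CPM + 0.1), with circles, squares and triangles for replicates 1, 2 and 3, green for resident and blue for recruited macrophages, and bars at the group means of the plotted values. Lyz2 stands far above the rest, Ly6i is at 0 CPM in resident replicate 2, and Ly6c2 is low in resident replicate 3.

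Lyz2, which encodes the lysozyme of macrophages and granulocytes, was the most abundant gene of the table by length-scaled level in each of the 6 libraries. Its level was 38691, 39812 and 36210 FPKM in resident replicates 1 to 3 and 44283, 46212 and 34786 FPKM (counts scaled to depth and gene length) in recruited replicates 1 to 3. It took 3.04 to 3.98% of all counts of a library. In CPM it was read at 32604, 35511 and 32497 in resident and at 38089, 40420 and 29987 in recruited libraries. The resident libraries lay within the range of the recruited ones. On the log2 scale the difference was 0.11 ± 0.15 (SE), with a 95% interval from -0.22 to 0.44 (adjusted p = 0.769), so the interval spans 0.856- to 1.36-fold. Its copy Lyz1 took 0.732 to 2.87% of the reads assigned to the pair, and the difference of the pair summed was 0.10 on the log2 scale.

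Per length, the other genes followed in nearly the same order in both groups. In resident macrophages the mean FPKM levels were 597 for Ly6e, 438 for Hp, 162 for Napsa, 74.7 for Plac8, 68.5 for Ly6a, 10.03 for Ly6i, 7.09 for Ly6c2 and 2.19 for Ly6c1. Here the libraries of Ly6e and Hp overlapped, as did those of Plac8 and Ly6a, of Ly6i and Ly6c2 and of Ly6c2 and Ly6c1. In recruited macrophages the mean FPKM levels were 717 for Hp, 402 for Ly6e, 131 for Napsa, 70.7 for Plac8, 49.2 for Ly6a, 15.4 for Ly6c2, 12.8 for Ly6i and 0.383 for Ly6c1. In that order the neighbours Plac8 and Ly6a overlapped, and so did Ly6c2 and Ly6i. The places of Ly6e and Hp were exchanged between the groups, and so were those of Ly6i and Ly6c2.

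Ly6c2, the gene behind most of the Ly6C staining by which monocytes are divided, was low in both groups. Its level was 6.78, 6.17 and 0.547 CPM in resident and at 14.4, 9.64 and 5.18 CPM in recruited replicates 1 to 3. Recruited replicate 3 stood below 2 resident libraries, so the groups overlapped, and resident replicate 3, with 12 counts, was the lowest library. The log2 difference was 1.11 ± 0.82 (SE; 95% interval -0.77 to 2.99, adjusted p = 0.542), or 2.16-fold higher in recruited macrophages with an interval of 0.588 to 7.93-fold. Without resident replicate 3 it was 0.59, and without resident replicates 2 and 3 it was 0.52. Without resident replicate 1 it was 1.54. Over all other fits of the gene by itself it was 0.52 to 1.63.

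Ly6c1, which is expressed by endothelial cells and other cells besides monocytes, had too few counts for the test. Its level was 0.244, 3.03 and 1.19 CPM in resident and at 0.418, 0.286 and 0.0494 CPM in recruited libraries, the last of which is 1 count. Its share of the reads assigned to the Ly6c pair differed within the resident group. That share was 3.48% in resident replicate 1 (95% Wilson interval 1.70 to 7.01%, 201 counts), 33.0% in replicate 2 (26.5 to 40.1%, 179 counts) and 68.4% in replicate 3 (52.5 to 80.9%, 38 counts). It was 2.82, 2.88 and 0.943% in recruited replicates 1 to 3. The intervals of resident replicates 2 and 3 therefore lay above those of the other 4 libraries. They treat each count as independent, though counts are of amplified fragments, and so do not cover the sampling of molecules. The 2 genes summed were read at 7.02, 9.20 and 1.73 CPM in resident and 14.8, 9.92 and 5.23 CPM in recruited libraries, with a log2 difference of 0.74 ± 0.65 (SE, adjusted p = 0.623). Since the counting divided shared reads between the copies, the share of each copy depends on that division.

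**Figure D2:**
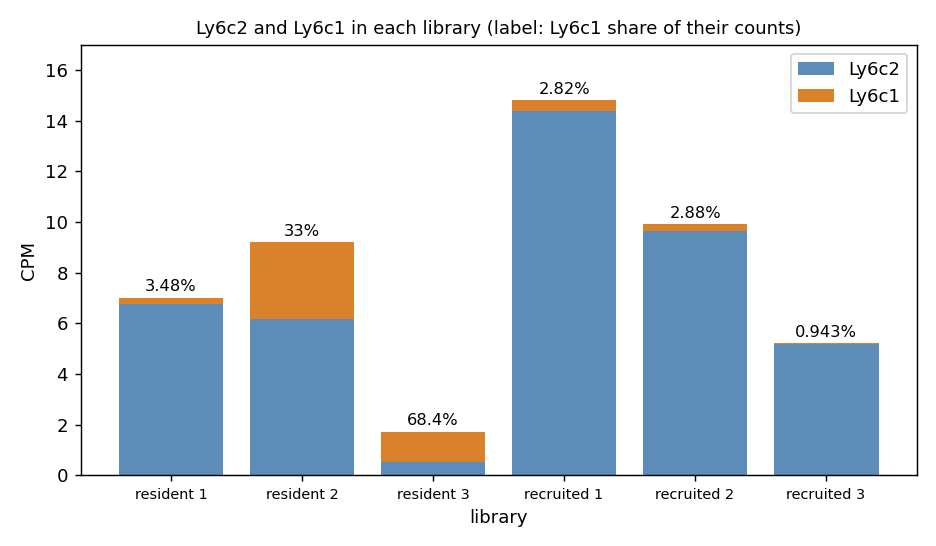
CPM of Ly6c2 (blue) and Ly6c1 (orange) stacked for each of the 6 libraries, with the share of Ly6c1 in their summed counts above each bar. Ly6c1 holds 33.0 and 68.4% in resident replicates 2 and 3 and under 4% in the other libraries.

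Markers of endothelial cells, which are known to express Ly6c1, were set beside it. The summed level of the 15 endothelial markers was 23.1, 26.1 and 29.7 CPM in resident and 11.8, 30.9 and 24.4 CPM in recruited libraries, with Tie1, Emcn, Robo4 and Erg at 0 in all 6. Recruited replicate 2, the highest in this sum, had Ly6c1 at 0.286 CPM. Vwf, the von Willebrand factor, was read at 5.62, 11.9 and 9.67 CPM in resident libraries, in the same order as Ly6c1. In recruited libraries it was read at 5.55, 10.4 and 6.86 CPM, in another order than Ly6c1. Kdr, a receptor of VEGF, was read at 9.88, 8.43 and 0 and at 3.58, 10.3 and 12.6 CPM. Pecam1, an adhesion molecule that myeloid cells also carry and that is named after its values were seen, was read at 7.37, 5.40 and 11.5 CPM in resident and 1.13, 2.72 and 3.41 CPM in recruited libraries, without overlap (adjusted p = 0.212). Of 4 tested markers 0 were called and 3 were negative, with a median log2 difference of -0.90. The part of endothelial RNA in the values of Ly6c1 was not tested.

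Ly6i, a close relative of Ly6a, varied more than any other tested gene of the set. The libraries gave 9.81, 0 and 12.1 CPM in resident and at 17.3, 5.49 and 4.39 CPM in recruited libraries. In resident replicate 2 there was no count, while resident replicates 1 and 3 had 281 and 266 counts. At the depth of resident replicate 2, 3 counts correspond to 0.154 CPM. That value treats each count as independent, though counts are of amplified fragments. It does not cover the sampling of molecules, so it sets no upper limit on the level in the cells. The log2 difference of 0.30 ± 1.28 (SE; 95% interval -2.62 to 3.23, adjusted p = 0.935) changed with the method and with single libraries. It was 1.81 with limma-voom and 1.90 with limma on log2(FPKM + 0.1). It was -0.28 without resident replicate 2 and -0.56 without recruited replicate 1. With both resident replicates 2 and 3 left out it was -0.12.

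Ly6e, an interferon-induced GPI-anchored protein known to restrict coronavirus entry, was the most abundant Ly6 gene. It was read at 1336, 961 and 962 CPM in resident and at 882, 693 and 615 CPM in recruited libraries. All resident libraries stood above all recruited ones, at 1087 ± 216 against 730 ± 137 CPM (SD, n = 3 each). This is a log2 difference of -0.57 ± 0.19 (SE), or 1.49-fold higher in resident macrophages with a 95% interval of 1.10 to 2.01-fold that is not adjusted for the number of genes. With adjustment over all tested genes p was 0.194, and it was 0.055 to 0.464 over all other settings. Without resident replicates 2 and 3 the log2 difference was -0.87, and without resident replicate 1 it was -0.39. These were the ends of its range over all settings.

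Ly6a, the stem cell antigen Sca-1, which interferons also induce, was read at 79.4, 41.7 and 37.8 CPM in resident and at 52.8, 31.4 and 29.4 CPM in recruited libraries. Replicate 1 was the highest library of either group, and the groups overlapped. The log2 difference was -0.49 ± 0.34 (SE; 95% interval -1.27 to 0.30, adjusted p = 0.523). It was -0.07 without resident replicate 1 and -1.07 without resident replicates 2 and 3.

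The rest of the Ly6 and uPAR family was nearly silent. Of 30 further family genes in the table, 21 had no count in any library, among them Ly6d, Ly6f, Ly6h, Psca and Slurp1, and 3 were tested, with 0 called. Plaur, the urokinase receptor, was the abundant one, at 516, 395 and 575 CPM in resident and 614, 557 and 675 CPM in recruited libraries (log2 difference 0.31 ± 0.16 SE, adjusted p = 0.391). Cd59a, an inhibitor of the complement attack complex, was read at 1.96 to 7.30 and 3.22 to 5.68 CPM. Lynx1, a modulator of nicotinic acetylcholine receptors, did not exceed 0.835 CPM.

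Hp encodes haptoglobin, which binds free haemoglobin and is made in the liver and in myeloid cells. The libraries gave 394, 459 and 685 CPM in resident and at 1099, 690 and 689 CPM in recruited libraries. The groups did not overlap, but resident replicate 3 stood just below recruited replicates 2 and 3. This is a log2 difference of 0.69 ± 0.26 (SE), or 1.61-fold higher in recruited macrophages with an unadjusted 95% interval of 1.07 to 2.42-fold. The adjusted p was 0.239, and it was 0.0835 to 0.549 over all other settings. Leaving out recruited replicate 1 gave a log2 difference of 0.43, and leaving out both resident replicates 2 and 3 gave 1.07.

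Neutrophils also carry haptoglobin, and the summed level of their markers was higher in each recruited than in each resident library. The sum of 15 neutrophil markers was 122, 108 and 150 CPM in resident and 309, 236 and 262 CPM in recruited libraries. Ly6g, Ngp and Mpo were at 0 in all 6 libraries, and 0 of the 7 tested markers were called. Csf3r, the receptor of a granulocyte growth factor, was read at 56.9 to 76.6 and 55.8 to 92.0 CPM, and S100a8, a calprotectin subunit that monocytes also express, at 29.0 to 72.1 and 38.8 to 106 CPM. Of the tested markers 2 separated the groups toward recruited macrophages, as did 12.2% of all tested genes. Both are metalloproteinases and are named after their values were seen. Mmp8 was read at 8.63, 2.98 and 0.0456 CPM in resident and 89.0, 63.0 and 33.4 CPM in recruited libraries (adjusted p = 0.138), and Mmp9 at 2.17, 6.79 and 0.684 and at 13.5, 65.7 and 37.2 CPM (adjusted p = 0.117). Without these 2 genes the sums were 112, 98.7 and 149 CPM in resident and 206, 107 and 191 CPM in recruited libraries, and overlapped. The part of these markers in the difference of Hp was not tested.

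Of 6 other tested genes of haemoglobin and its handling, globin genes among them, 0 were called. The groups were separated by 1 toward recruited and by 1 toward resident macrophages, beside 12.2% and 12.6% of all tested genes. Hmox1, which breaks down haem, was read at 572, 798 and 703 CPM in resident and 678, 1150 and 458 CPM in recruited libraries. Lrp1, the receptor for haem bound to haemopexin, was read at 225, 212 and 136 CPM in resident and 271, 267 and 244 CPM in recruited libraries, so that like Hp it separated the groups (log2 difference 0.45 ± 0.19 SE, adjusted p = 0.293). Cd163, the receptor that takes up haptoglobin bound to haemoglobin and named here after its values were seen, was read at 40.3, 20.7 and 54.8 CPM in resident and 4.18, 1.77 and 12.0 CPM in recruited libraries, without overlap (adjusted p = 0.129). Haemoglobin transcripts of red cells were highest in resident replicate 3, with Hbb-bs at 161 CPM there and at 0 to 10.96 CPM elsewhere.

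Plac8, a small cysteine-rich protein that marks Ly6C-high monocytes and plasmacytoid dendritic cells, was nearly level. It was read at 44.7, 40.9 and 29.3 CPM in resident and at 42.0, 37.3 and 27.7 CPM in recruited libraries. The log2 difference was -0.10 ± 0.24 (SE; adjusted p = 0.877), and its 95% interval of 0.632 to 1.37-fold holds no difference of 2-fold in either direction. With both resident replicates 2 and 3 left out the log2 differences of Plac8, Napsa and Lyz2 were -0.32, -0.08 and 0.15.

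Napsa encodes napsin A, an aspartic protease best known from lung epithelium. It was read at 179, 211 and 245 CPM in resident and at 182, 196 and 130 CPM in recruited libraries. The groups overlapped, with a log2 difference of -0.32 ± 0.19 (SE; 95% interval -0.76 to 0.11, adjusted p = 0.441). Of the other aspartic proteases and lysozymes 4 of 13 were tested and 0 called. Ctsd, the lysosomal aspartic protease cathepsin D, was read at 4874, 6453 and 4403 CPM in resident and 7836, 13654 and 9229 CPM in recruited libraries, with a log2 difference of 0.97 ± 0.23 (SE, adjusted p = 0.122), and Gm49369 overlaps it on the same strand.

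Dendritic cells also carry Napsa and Plac8. The summed level of 10 dendritic cell markers was 187, 374 and 653 CPM in resident and 164, 239 and 117 CPM in recruited libraries, with Cd209a the most abundant, at 103, 313 and 587 and at 107, 169 and 56.0 CPM. Its part in the values of Napsa was not tested. The remaining marker lists were low or came from few genes: the T, NK and B cell markers summed to 0 to 8.14 and 2.71 to 5.85 CPM in resident and recruited libraries, with Cd8a and Ncr1 at 0. The fibroblast markers summed to 166 to 271 and 250 to 276 CPM with Pdgfra and Clec3b at 0, mostly from Slc2a1, a glucose transporter that macrophages also express. Without Slc2a1 the other fibroblast markers summed to 25.7, 52.1 and 58.4 CPM in resident and 14.02, 8.83 and 15.9 CPM in recruited libraries. The collagen gene Col3a1 was read at 7.61, 20.6 and 28.1 CPM in resident and 3.94, 3.34 and 2.37 CPM in recruited libraries (adjusted p = 0.105), and Col1a2, named after its values were seen, at 7.40, 12.9 and 5.79 and at 2.21, 0.0477 and 0.691 CPM (adjusted p = 0.202). Of 7 tested fibroblast markers 0 were called and 5 were negative, with a median log2 difference of -1.29, and their part in the values of Ly6e and Ly6a was not tested. The Schwann cell markers summed to 239 to 300 and 245 to 539 CPM with Sox10 at 0, mostly from Pmp22.

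**Figure D3:**
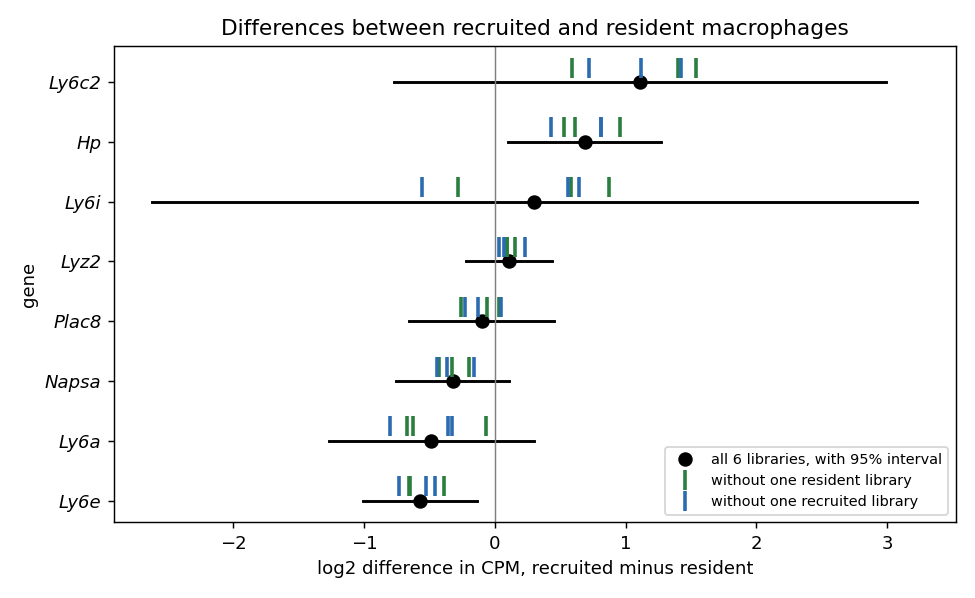
Log2 difference in CPM, recruited minus resident, of the 8 tested genes, with dots and 95% intervals (not adjusted for the number of genes) from all 6 libraries and ticks for fits that leave out 1 resident (green) or 1 recruited (blue) library. The intervals of Ly6e and Hp do not cross 0, those of Ly6c2 and Ly6i are the widest, and the ticks of Ly6i and Plac8 lie on both sides of 0.

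Other genes of the classical monocyte did not move one way. Of 19 tested genes of the list 0 were called, 11 were positive and 8 negative, and the median log2 difference was 0.28 beside 0.01 over all tested genes. The 3 most abundant were Cd14, a co-receptor for lipopolysaccharide, at 2255 ± 155 and 2732 ± 596 CPM (SD, n = 3), Fn1, which encodes fibronectin, at 1415 ± 387 and 1874 ± 469 CPM, and the antiviral membrane protein Ifitm3, at 1380 ± 81.5 and 1063 ± 143 CPM. Their adjusted p-values were 0.474, 0.454 and 0.231.

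The groups did not overlap for 8 of the 19 genes, 4 higher in recruited and 4 higher in resident macrophages, beside 12.2% and 12.6% of all tested genes. Of these Ifitm3 is given above, and Thbs1, Mgst1, Ifitm2 and S100a6 had adjusted p-values of 0.129, 0.214, 0.307 and 0.192. The other 3 are named, as are these 4, after their values were seen. Ccr2, the chemokine receptor of classical monocytes, was read at 1112, 739 and 1024 CPM in resident and 561, 476 and 417 CPM in recruited libraries, 1.98-fold higher in resident macrophages (adjusted p = 0.0933). Clec4e, which encodes the pattern receptor Mincle, was read at 468, 498 and 495 CPM in resident and 1008, 831 and 785 CPM in recruited libraries, 1.79-fold higher in recruited macrophages (adjusted p = 0.0577). Vcan, the matrix proteoglycan versican, was read at 10.4, 13.8 and 9.89 and at 29.0, 23.7 and 42.3 CPM (adjusted p = 0.105), and Gm16318 and Gm4117 overlap it on the opposite strand. None of the 8 passed the threshold.

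Genes of the non-classical monocyte, 15 of them tested, had 0 calls, 4 positive and 11 negative differences and a median of -0.40 on the log2 scale. The most abundant were the scavenger receptor Cd36, at 2150 ± 65.3 and 2624 ± 517 CPM (SD, n = 3; adjusted p = 0.409), the transcription factor Klf2, at 178 ± 41.4 and 145 ± 31.4 CPM (adjusted p = 0.551), and the apolipoprotein Apoc2, at 139 ± 59.5 and 127 ± 54.6 CPM (adjusted p = 0.903).

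In the list of genes that change as monocytes become macrophages, 3 of 18 tested genes were called, all higher in resident macrophages and all encoding chains of C1q, the starting protein of the classical complement pathway. C1qa was read at 626, 813 and 793 CPM in resident and 178, 194 and 209 CPM in recruited libraries, with a log2 difference of -1.94 ± 0.15 (SE, adjusted p = 0.00869). C1qb and C1qc had log2 differences of -1.44 ± 0.17 and -1.59 ± 0.19 (SE, adjusted p = 0.0184 for both). Of the list 11 genes were positive and 7 negative, with a median of 0.15. When each library was left out in turn, C1qa was called in 4 of 6 fits, C1qb in 1 and C1qc in 2, with adjusted p-values of 0.00881 to 0.0560 for C1qa and 0.0183 to 0.123 for the other chains. With both resident replicates 2 and 3 left out, the log2 differences of C1qa, C1qb and C1qc were -1.69, -1.11 and -1.25 (adjusted p = 0.0174, 0.0927 and 0.0852).

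**Figure D4:**
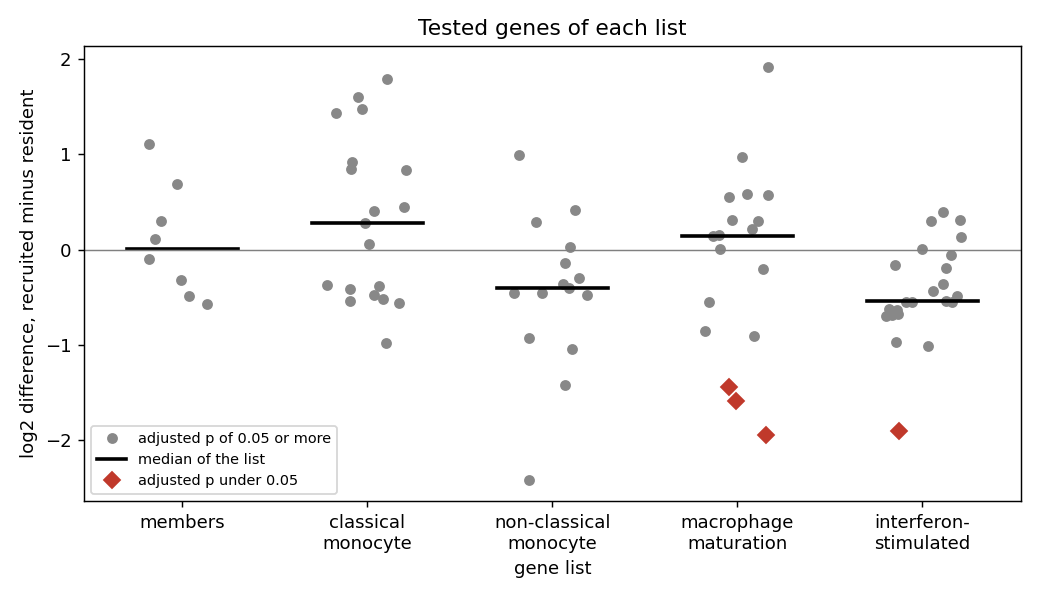
Log2 difference, recruited minus resident, of the tested genes of 5 lists, with a bar at each list's median and red diamonds for an adjusted p under 0.05 in edgeR's test. The 8 tested genes of the set lie around a median of 0.00, and the 4 red diamonds, C1qa, C1qb, C1qc and Ifi27l2a, lie below 0.

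Interferon-stimulated genes were set beside Ly6e, Ly6a and Ly6i. Of 23 tested genes 1 was called: Ifi27l2a, an interferon-induced gene of the Ifi27 family, was read at 602, 720 and 604 CPM in resident and 229, 172 and 115 CPM in recruited libraries (log2 difference -1.90 ± 0.24 SE, adjusted p = 0.0248). It was called in 2 of 6 fits that left out 1 library, with adjusted p-values of 0.0256 to 0.142, and with both resident replicates 2 and 3 left out the log2 difference was -1.81 (adjusted p = 0.125). Of the 23 genes 18 were negative and 5 positive, with a median of -0.54, and 4, or 17.4%, separated the groups toward resident macrophages, beside 12.6% of all tested genes. The 23 genes summed to 2183, 1515 and 2288 CPM in resident and 1401, 1200 and 1214 CPM in recruited libraries. Ifi27l2a alone gave 720 CPM of the sum in resident replicate 2, and the separation of the sums depends on this gene.

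Resident replicate 2, the library with no Ly6i count, was also the lowest of the 6 for 16 of the 23 interferon-stimulated genes, or 69.6%, while it was the lowest for 26.3% of all tested genes. Ifit1, which binds viral RNA, was read at 55.0, 4.01 and 52.3 CPM in resident and 34.3, 24.9 and 27.6 CPM in recruited libraries. The chemokine Cxcl10 had no count in that library and was read at 2.91 to 19.2 CPM in the others. Both are named after their values were seen. Ly6e and Ly6a, at 961 and 41.7 CPM there, were below resident replicate 1 (1336 and 79.4 CPM) and near resident replicate 3 (962 and 37.8 CPM). Both were above recruited replicates 2 and 3. Ly6c2 took another course, with 6.17 CPM in resident replicate 2 and its lowest value in replicate 3.

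**Figure D5:**
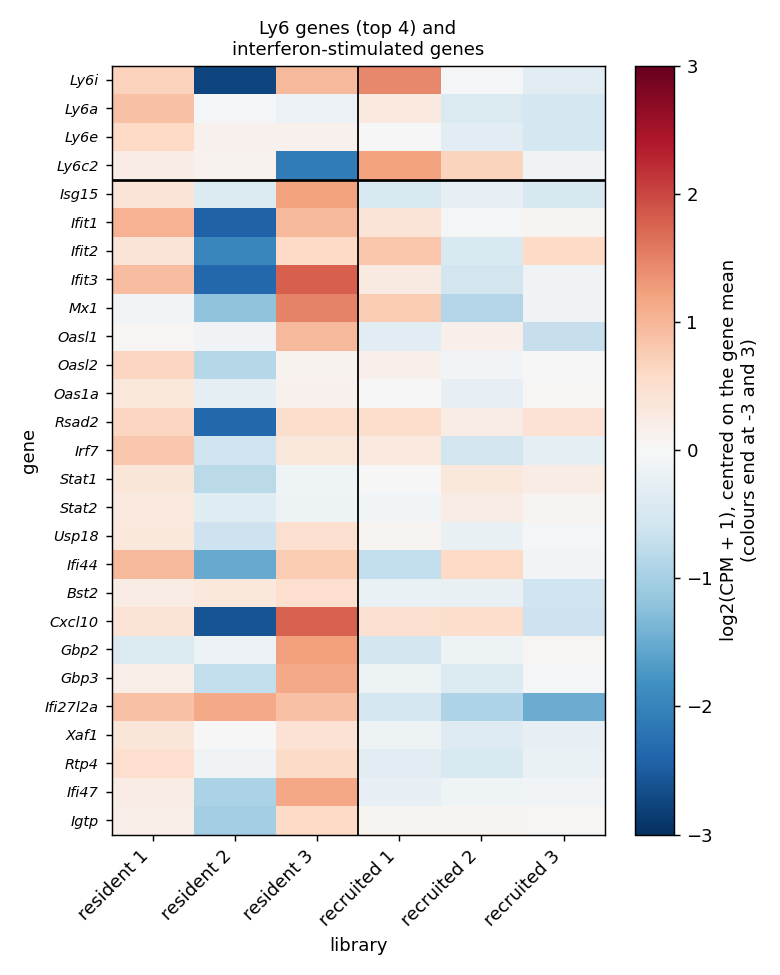
Log2(CPM + 1) of 4 Ly6 genes (above the line) and 23 interferon-stimulated genes in the 6 libraries, centred on each gene's mean, with red above and blue below it. Resident replicate 2 is blue for Ly6i, Ifit1, Ifit3, Rsad2 and Cxcl10 and near white for Ly6e and Ly6a.

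The genes whose course over the 6 libraries was most like that of a tested member were sought among 10840 tested named genes, for the 5 members whose log2 CPM spanned at least 1. The measure was the root mean square difference of centred log2 CPM over the 6 libraries. For Hp they were Sod2, the mitochondrial superoxide dismutase (0.123), and Fbxl15 (0.137). Sod2 was read at 222, 294 and 348 CPM in resident and 720, 391 and 393 CPM in recruited libraries, so that it too separated the groups. For Ly6e they were Gpatch2 (0.114) and Lime1 (0.124), and for Ly6a Atp2b4 (0.170), a calcium pump, and Wdr75 (0.195). Ly6c2 is given with Suco (0.340), and for Ly6i they were Ifit1bl1 (0.447) and Megf9 (0.474). Ifit1bl1, a member of the Ifit family, was read at 13.6, 0 and 9.71 CPM in resident and 33.5, 7.78 and 8.04 CPM in recruited libraries. Megf9 was read at 5.17, 0 and 4.47 CPM in resident and 8.53, 4.15 and 3.36 CPM in recruited libraries. Both had their 0 in the same library as Ly6i. These genes were picked for their likeness over the same 6 libraries, so no test was made.

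Promoters, from 250 bases before to 50 after the start of the gene, were found for 4 of the 9 genes in a RefSeq table of the mm10 build: Ly6c2, Ly6c1, Plac8 and Lyz2. The letters GAGGAA, the core bound by the myeloid factor PU.1, occurred on either strand 2 times in Ly6c2, 1 time in Ly6c1, 2 times in Plac8 and 0 times in Lyz2. They occur in 28.3% of 32851 promoters. The interferon response element ISRE, the STAT site (TTCNNNGAA) and the C/EBP site (TTGCNNAA) were searched on both strands, were found in none of the 4 and occur in 3.44, 8.30 and 10.8% of all promoters.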

How the data were processed

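The authors deposited expected counts and FPKM per gene symbol, per the file headers and values. FPKM are the authors' counts scaled to depth and gene length. Reads were handled, per the submitters' processing notes, with STAR 2.5.3a and RSEM 1.2.28, with Trimmomatic, FastQC, edgeR and DESeq2 also listed and mm10 as the build. The sources used here do not give the annotation. A read that fits several genes is shared out by RSEM. Per the labels, cDNA was amplified for 18 cycles (SMART-Seq v4) and sequenced with 75-base paired reads in 2 runs. Which run held a library is likewise not stated there, so run and group cannot be told apart, and without molecular identifiers counts are of amplified fragments.

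Expected counts were rounded. 26 rows named by dates (0.121 to 0.138% of counts) were left out. The main test was edgeR 4.0.16 (R 4.3.3), quasi-likelihood F test, TMM, filterByExpr, robust, with a term for group alone and p-values adjusted by Benjamini-Hochberg over the 11354 tested genes. SE is the absolute log2 difference divided by the square root of F. The script was tested on simulated data. Alternatives were other scalings and filters, DESeq2 1.42.0, limma 3.58.1 on counts (voom) and on log2(FPKM + 1 or 0.1), a replicate block, summed near-copies and libraries left out. Genes named were the members, every called gene of each other list or otherwise its 3 most abundant (2 for markers of other cells), and the 2 most like each member, of which 1 is not reported here. Any other gene is named with a remark that its values were known. The members and lists were chosen with earlier results of these data known.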

Additional observations from a re-analysis of the deposited data

How the results depend on the processing

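In every setting 0 of the tested members passed an adjusted p of 0.05. Of 131 settings over the 8 tested members 125 kept the direction, and CPM without TMM factors or FPKM changed no direction of a level. The log2 difference of Ly6i was 1.81 with limma-voom, 1.90 with limma on log2(FPKM + 0.1), 0.87 with 1 added and 1.25 with the replicate block, against 0.30 in the main fit. It was -0.56 to 0.87 when 1 library was left out, and negative without recruited replicate 1 or resident replicate 2 (-0.28). It was -0.12 with both resident replicates 2 and 3 left out, a choice made after seeing the data. That of Plac8 was -0.26 to 0.05, and positive without recruited replicate 3 or resident replicate 1 (0.03). The direction also reversed for Ly6c2 when Ly6c1, Ly6a and Ly6i were added to it (-0.22). Ly6a, whose own log2 difference was -0.49, was the most abundant gene of that sum in each library. The cause of the changes for Ly6i and Plac8 was not tested. The number of genes called was 36 in the main fit, 58 with no filter, 726 with DESeq2, 97 with limma on log2(FPKM + 1), 63 with 0.1 added and 8 with no filter on FPKM. Leaving out 1 library gave 0 (recruited replicate 2) to 580 genes (resident replicate 1), and leaving out resident replicates 2 and 3 gave 11, with the lone resident library assumed to vary like the recruited ones. With the replicate number as a block 28 genes and 0 members were called. Libraries of the same number had correlations of 0.02, 0.06 and 0.05 between their deviations from the group means. Those of different number had -0.09 to 0.06. The source names of the recruited libraries repeat the resident numbers. Whether libraries of the same number came from the same mice cannot be decided from these values. Depth limits Ly6c1, with 1 to 59 counts per library.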
